A study of Homo sapiens with 6 samples.

Results

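Kinesins and dyneins are the motor proteins of microtubules, and the set described here holds the human genes of kinesin heavy chains (KIF), kinesin light chains (KLC), dyneins (DYNC, DYNL and DNAH) and the dynein activator dynactin (DCTN). Members were chosen by symbol, and KIF14, KIF20A and KIF23 were left out by the rule. Of 81 symbols of this form in the gene table, 54 were measured among the 14883 named genes of the series. They comprise 39 kinesin heavy chains, 4 kinesin light chains, 6 dynactin subunits and 5 dynein genes (DYNC2I1, DYNC2I2, DYNLT2, DYNLT4 and DYNLT5). The 13 axonemal dynein heavy chains, the 5 chains of cytoplasmic dynein 1 and 9 further dynein genes were not analysed here, so the text says little of dynein itself.

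All samples came from the established human neuroblastoma line SK-N-BE(2), infected with a pLKO lentivirus for 48 h. In the first group the virus carried a hairpin against BRG1 (shBRG1, n = 3), which powers SWI/SNF nucleosome remodelling by hydrolysing ATP. In the other group it carried a non-silencing control (NSC, n = 3). From each sample, 200 ng of total RNA was labelled for 1 single-colour Affymetrix array. The infections are described as triplicate, with no word on separate cultures, so the p-values cover the spread among these arrays, part of which may be technical. SMARCA4, the gene of BRG1, was not analysed here, so the depletion itself was not checked, and 1 line and 1 hairpin name limit the model.

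Every value is a log2 expression value of the brightest probe set of a gene, and a change is the shBRG1 mean minus the NSC mean. A level of 1 probe set cannot be set against that of another. Array medians lay between 3.77 and 3.84, and arrays correlated at 0.991 to 0.993 within groups and at 0.986 to 0.988 between them. Changes were tested with limma over all 14883 named genes, with Benjamini-Hochberg adjustment and a threshold of 0.05, which 17% of genes passed. Of 8 measured adrenergic neuroblast markers 0 lay below the probe set median. In shBRG1 5 of the 8 were lower (62.5%, against 7.19% of all genes) and 0 were higher (against 9.78%). GATA3 did not pass, though it was higher on every shBRG1 array than on any NSC array (0.21, limma adjusted p = 0.0677). Of 6 mesenchymal markers 2 were lower (33.3%, against 7.19% of all genes) and 1 was higher (against 9.78%). Of 4 Schwann cell markers 1 was lower (25%, against 7.19%) and 0 were higher (against 9.78%). The summed log2 level of these 4 Schwann cell markers was 15.2 to 15.6 in shBRG1 and 16.4 to 16.8 in NSC. They are dim, with 1 below the probe set median and 3 below the median of gene means. That of the 6 mesenchymal markers was 38.4 to 39.2 in shBRG1 and 37.6 to 38.0 in NSC. FN1 (fibronectin, change 1.44) set this order, since the other 5 summed to 32.1 to 32.5 in shBRG1 and 32.6 to 32.8 in NSC. Such sums add different probe sets and serve only to compare arrays. The part of these markers in the results below was not tested.

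Kinesins carry a conserved ATPase head that steps along microtubules, mostly towards the plus end, whereas cytoplasmic dynein walks towards the minus end and needs dynactin and an adaptor to move far. Some kinesins build and position the spindle and are made mainly in G2 and mitosis. Others haul vesicles, mitochondria and mRNA along axons, and neuronal cells depend on them.

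Short stretches of the mitotic kinesin promoters are shown first, because KIFC1 and KIF11 are the mitotic kinesins that fell in the results below. Many late cell cycle genes carry a cell cycle homology region (CHR) near the start, bound by the DREAM and MuvB complexes, with CCAAT boxes upstream that bind NF-Y. The sequences are from RefSeq (GRCh38.p14), read 5′ to 3′ on the gene's strand, with 10 bases on each side of the CHR letters in capitals (TTTGAA, its reverse complement TTCAAA, or TTCGAA).
KIFC1: gccgttggaaTTCAAAagtggcgggt
KIF11: ctgtctctttTTCAAAttgaggcgcc
KIF20B: gccgccattgTTTGAAtttgaaaacg
KIF4B: ctgggagggaTTTGAAacttggcggt
KIF4A: ccgggacggaTTTGAAacttggcggt
KIF22: caccggggaaTTCGAAtgggagaggc
KIF18A: gtggcttgggTTTGAAtattgtggtt
KIF18B: gcccggctaaTTTGAAcgcaaggcgc
KIF15: aagcgccaaaTTCAAAtttgcggcca

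The KIF20B window is centred on the first of 2 adjoining TTTGAA matches, and the second stands in lower case in its flank. The windows lie at chr6:33391817-33391842 (plus strand) for KIFC1, chr10:92593092-92593117 (plus) for KIF11 and chr10:89701604-89701629 (plus) for KIF20B. Those of KIF4B, KIF4A and KIF22 lie at chr5:155013748-155013773, chrX:70290060-70290085 and chr16:29790714-29790739, all on the plus strand. KIF18A has chr11:28108151-28108176 (minus strand), KIF18B chr17:44947756-44947781 (minus) and KIF15 chr3:44761749-44761774 (plus). KIF4B is known as an intronless copy of KIF4A.

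CHR letters on either strand stood in the 300-base windows (250 bases before the start and 50 after) of 9 of 11 mitotic kinesins, or 81.8%. Among transport motors with a promoter entry they stood in 1 of 19 (5.26%, KIF5B), and among all 27305 promoters in 16.6%. CCAAT on either strand was found for 8 of 11 mitotic kinesins (72.7%), 6 of 19 transport motors (31.6%) and 35.7% of all promoters. The E2F core letters GCGGGAA were found for 0 of 11, 4 of 19 and 6.56%, in the same order. KIF2B and KIF2C were the mitotic kinesins whose windows held no CHR letters. A match is a description of letters and not a bound site.

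The promoters of KIFC1 and KIF11 are printed up to the base before the start, because they are the mitotic kinesins past the threshold. Capitals mark CCAAT boxes in reverse (ATTGG) and, in KIF11, the CHR letters in reverse.
KIFC1: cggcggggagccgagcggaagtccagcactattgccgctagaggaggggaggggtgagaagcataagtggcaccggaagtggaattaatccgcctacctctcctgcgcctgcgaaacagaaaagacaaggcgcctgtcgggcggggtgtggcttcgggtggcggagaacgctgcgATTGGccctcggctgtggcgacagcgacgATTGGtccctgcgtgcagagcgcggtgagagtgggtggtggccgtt
KIF11: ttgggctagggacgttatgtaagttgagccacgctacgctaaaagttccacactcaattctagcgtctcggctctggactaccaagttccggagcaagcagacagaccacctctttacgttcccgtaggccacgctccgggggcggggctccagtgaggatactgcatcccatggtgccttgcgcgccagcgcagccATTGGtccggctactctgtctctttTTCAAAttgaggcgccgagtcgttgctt

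These stretches are chr6:33391573-33391822 and chr10:92592880-92593129, both on the plus strand. The CHR letters of KIFC1 begin 5 bases into the transcript and those of KIF11 lie 28 bases before the start. The nearest CCAAT box lies 46 bases before the start in KIFC1 and 53 bases before it in KIF11.

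Of the 54 members, 5 passed the threshold (9.26%, against 17% of all named genes). KIFC1, KIF11 and KIF16B were lower in shBRG1 and DYNC2I1 and KIF26A were higher, 3 lower (5.56%, against 7.19% of all genes) and 2 higher (against 9.78%). Changes of the other 49 members lay within 0.36 on the log2 scale. Of all 54 members 52 changed by less than 0.5, as did 13904 of all 14883 genes. The shBRG1 values lay wholly outside the NSC range for 22 members, or 40.7%, where 35.5% of all genes did so. In 15 of these the shBRG1 arrays were lower (27.8%, against 15.3% of all genes) and in 7 higher (20.3% of all genes). The median change was -0.04 over the members and 0.01 over all genes. The 5 calls became 3 without NSC replicate 1 or 2 or shBRG1 replicate 1, and 2 without shBRG1 replicate 2.

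**Figure D1:**
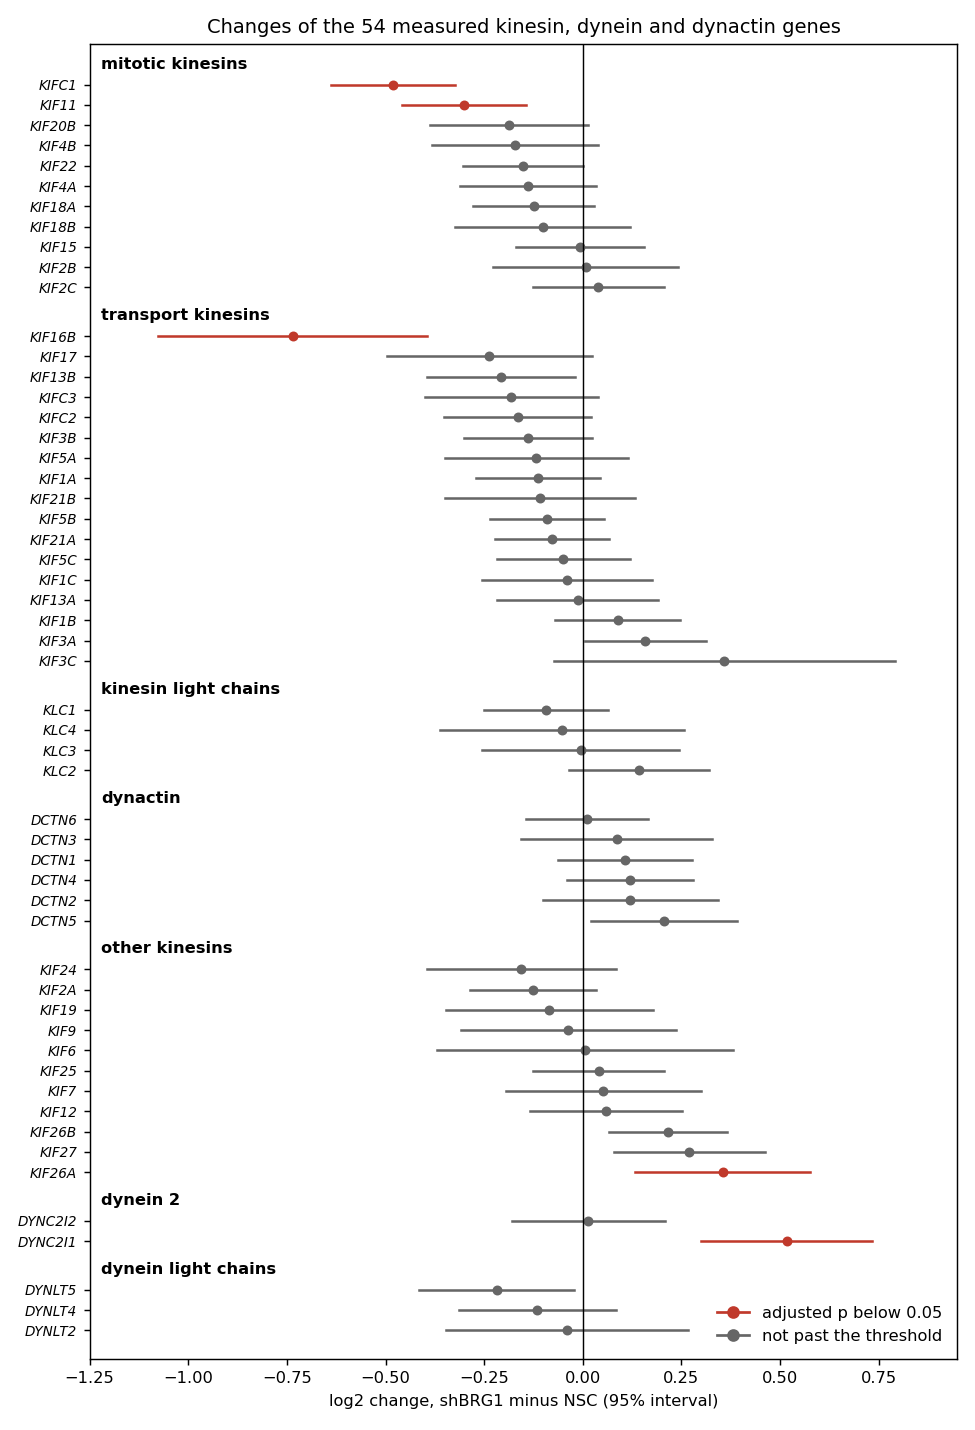
Log2 change (shBRG1 minus NSC) of each of the 54 measured members, grouped by role, with points for the estimate and bars for the 95% interval of limma. Red marks the 5 members past the threshold, KIFC1, KIF11 and KIF16B to the left of 0 and KIF26A and DYNC2I1 to the right, while most other intervals include 0.

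The mitotic kinesins assemble the spindle, move chromosomes and trim microtubule ends. Among 11 measured, 2 fell in shBRG1 (18.2%, against 7.19% of all genes), 0 rose (against 9.78%) and 9 were not past the threshold. Their median change was -0.14, and 9 of the 11 had a change below 0 (against 7271 of all 14883 genes). The shBRG1 arrays lay wholly below the NSC arrays for 5 of the 11 (45.5%, against 15.3% of all genes) and wholly above for 0 (against 20.3%). In bulk RNA, fewer cells in G2 and mitosis and less transcript per cell cannot be told apart.

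KIFC1 encodes a minus-end-directed kinesin that focuses spindle poles and clusters extra centrosomes. Its values were 7.85, 7.82 and 7.88 in shBRG1 and 8.34, 8.26 and 8.38 in NSC. All 3 shBRG1 arrays lay well below all NSC arrays, with a gap wider than the spread within either group. The means were 7.85 ± 0.03 in shBRG1 and 8.33 ± 0.06 in NSC (SD, n = 3), a 1.397-fold fall (log2 change -0.48, SE 0.07, limma adjusted p = 0.00364). The call held under each of 13 alternative fits (adjusted p 5.53e-05 to 0.0197). KIFC1 has 3 probe sets, and the next brightest gave a change of -0.53 while the dimmest gave -0.18.

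KIF11 encodes the tetrameric plus-end motor Eg5, which pushes the spindle poles apart and is the target of monastrol. Its values were 9.77, 9.74 and 9.82 in shBRG1, against 10.13, 10.07 and 10.02 in NSC. The groups did not overlap, with a gap wider than the spread within either group. KIF11 fell 1.23-fold in shBRG1 (-0.30, SE 0.07, limma adjusted p = 0.0217). The call was lost without NSC replicate 1 (adjusted p = 0.0709) or 2 (0.0589), or without shBRG1 replicate 1 (0.0689), 2 (0.0680) or 3 (0.0506), in a range of 1.94e-04 to 0.0792 over the alternatives.

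KIF15, a plus-end motor that can take over spindle pole separation when KIF11 is inhibited, had 6.88, 7.03 and 6.94 in shBRG1 and 6.95, 6.93 and 6.98 in NSC. The groups overlapped fully, and the change of -0.01 had a 95% interval of -0.17 to 0.15. The interval includes no change and excludes a fall as large as the estimate for KIF11.

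The chromokinesins bind chromosome arms as well as microtubules. KIF22, which pushes chromosome arms away from the poles, had 8.69, 8.68 and 8.70 in shBRG1 and 8.80, 8.82 and 8.90 in NSC. KIF4A, which also organises the anaphase midzone with PRC1, had 8.17, 8.16 and 8.23 in shBRG1 and 8.43, 8.29 and 8.26 in NSC. Both genes were lower on every shBRG1 array than on any NSC array, yet neither passed (KIF22 -0.15, adjusted p = 0.165; KIF4A -0.14, adjusted p = 0.264), although KIF22 did with trend and robust options. KIF4B is a near-identical copy, and whether its probes also bind KIF4A transcripts was not tested. KIF4B had 7.82, 7.59 and 7.71 in shBRG1 and 7.996, 7.78 and 7.87 in NSC, with 1 shBRG1 array inside the NSC range and a change of -0.17 (adjusted p = 0.253).

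Kinesins of the 8 and 13 families shorten microtubules. KIF18A, which damps chromosome movements at the metaphase plate, had 6.90, 6.92 and 6.97 in shBRG1 and 7.11, 7.05 and 7.01 in NSC, without overlap (-0.12, adjusted p = 0.255). KIF18B, which trims astral microtubules together with KIF2C, had 7.95, 7.73 and 7.62 in shBRG1 and 7.85, 7.91 and 7.85 in NSC. Its shBRG1 arrays fell on both sides of the NSC arrays (-0.10, adjusted p = 0.538). KIF2C, the centromeric depolymerase MCAK, had 7.48, 7.51 and 7.54 in shBRG1 and 7.503, 7.38 and 7.54 in NSC (0.04, 95% interval -0.13 to 0.20). KIF2B, its relative at kinetochores, had 4.64, 4.95 and 4.64 in shBRG1 and 4.66, 4.75 and 4.79 in NSC (0.01, adjusted p = 0.974). Neither of these groups was separated. KIF2B was dim, at a mean of 4.74 below the median of gene means, so the fit without dim genes left it out.

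KIF20B, a midbody kinesin of late cytokinesis, had 8.58, 8.52 and 8.70 in shBRG1 and 8.91, 8.75 and 8.70 in NSC (-0.19, adjusted p = 0.191). The groups met at their edges. Of the cytokinesis kinesins that the rule leaves out, KIF14 had a change of -0.65 (adjusted p = 0.00209), KIF20A of -0.13 (adjusted p = 0.334) and KIF23 of -0.13 (adjusted p = 0.255). With these 3 counted in, 3 of 14 mitotic kinesins were lower (21.4%, against 7.19% of all genes) and the median change was -0.13.

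**Figure D2:**
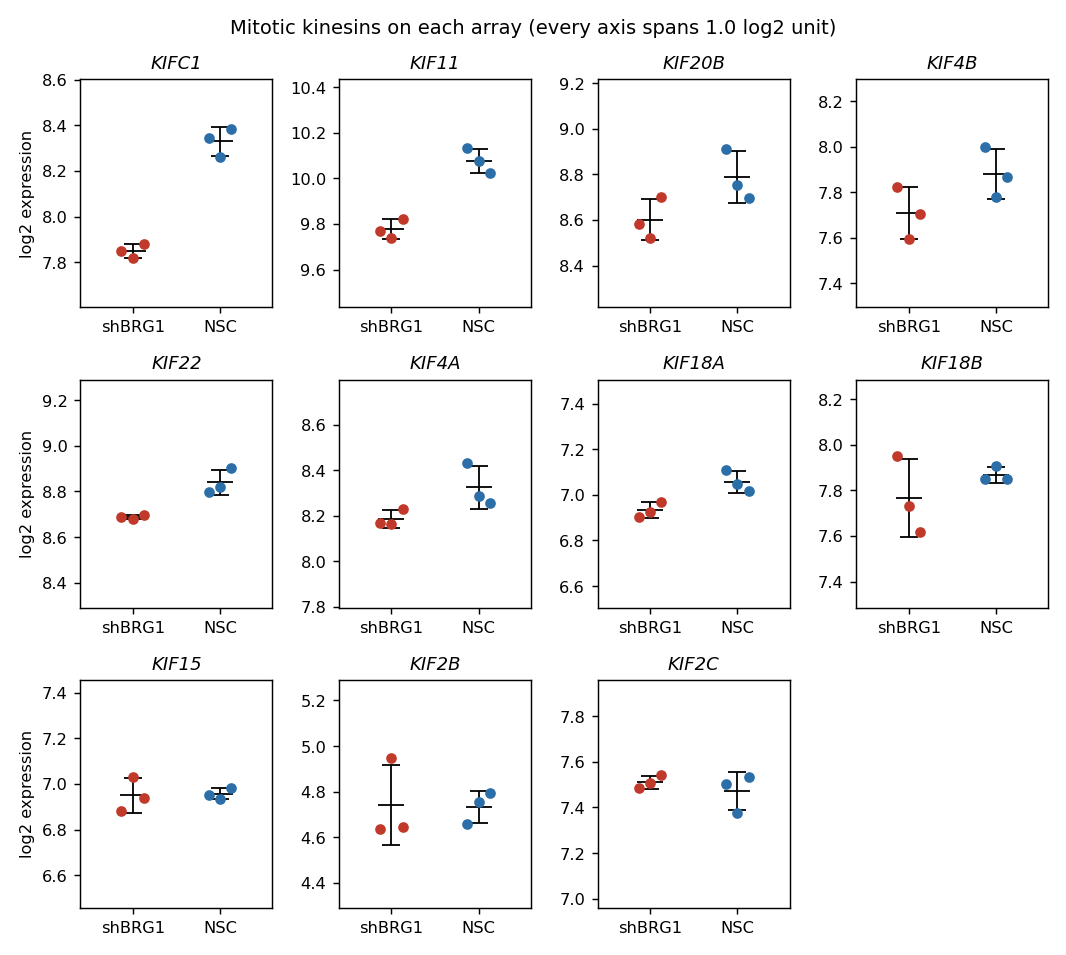
Log2 expression of the 11 mitotic kinesins on each array, shBRG1 in red and NSC in blue, with the mean and SD of 3 arrays in black. Every panel spans 1.0 log2 unit, and panels run from the largest fall (KIFC1, -0.48) to the highest change (KIF2C, 0.04), with clear gaps for KIFC1 and KIF11.

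Most of the motors' measured partners on the spindle fell. Of 14 measured partners and regulators of spindle motors, 9 were lower in shBRG1 (64.3%, against 7.19% of all genes), 1 was higher (against 9.78%) and 4 did not pass, with a median change of -0.37. The 4 with the smallest p were HMMR (-0.81), CEP55 (-0.73), CKAP2 (-0.50) and PRC1 (-0.40), all lower. HMMR binds spindle microtubules and CEP55 directs abscission at the midbody. PRC1, the bundling protein that brings KIF4A to the midzone, had 9.95, 9.99 and 9.87 in shBRG1 and 10.33, 10.30 and 10.37 in NSC (limma adjusted p = 0.00737). CKAP5, a polymerase of microtubule plus ends, was the one called higher (0.36, adjusted p = 0.0103). The 4 that did not pass were RACGAP1 (-0.20), PLK1 (-0.04), KNSTRN (0.03) and AURKB (0.16). RACGAP1 was lower and AURKB higher on every shBRG1 array than on any NSC array. The difference between the partners and the mitotic kinesins was not tested, and neither list stands for all mitotic genes. Both lists were chosen with earlier results of these data known, so their shares against all genes are descriptions only.

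**Figure D3:**
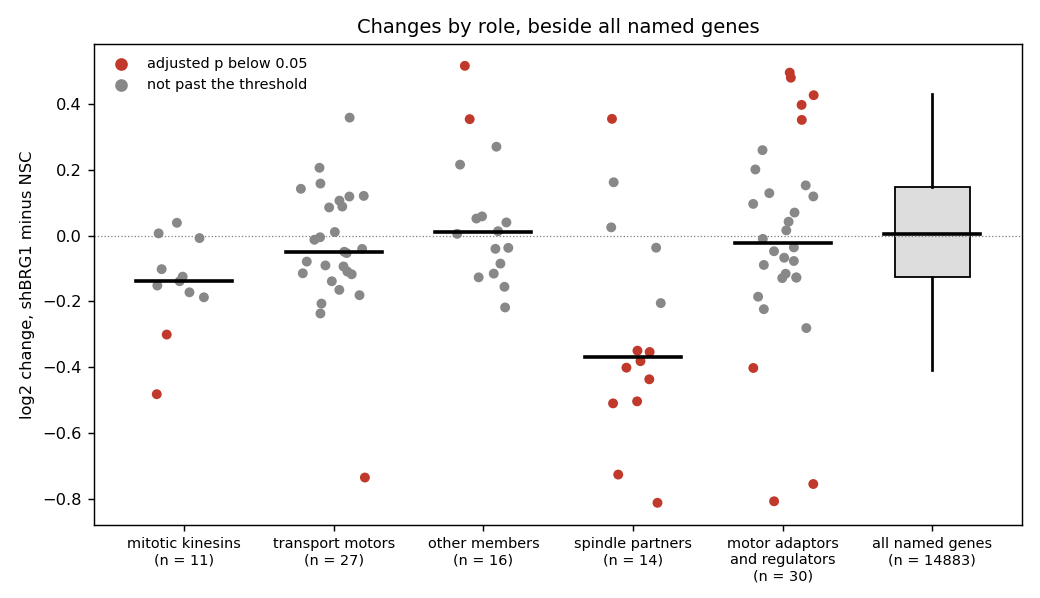
Log2 change (shBRG1 minus NSC) of each gene by role, with red for genes past the threshold and a bar at the median of each list. The box at the right gives the quartiles and the 5th to 95th percentile of all 14883 named genes; medians are -0.14 for mitotic kinesins, -0.05 for transport motors and -0.37 for spindle partners.

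KIF16B was the transport motor past the threshold. Of 27 measured (17 transport kinesins, 4 light chains and 6 dynactin subunits), 1 fell (3.70%, against 7.19% of all genes), 0 rose (against 9.78%) and 26 were not past the threshold. Under an unadjusted p of 0.05 there were 4 of the 27 (14.8%, against 30.4% of all genes). With dim genes left out 2 rose, and 1 rose with trend and robust options. The median change was -0.05, beside -0.14 for the mitotic kinesins and 0.01 for all genes. This pools unlike classes. The 17 transport kinesins alone had a median of -0.11. For 14 the change was below 0, as for 7271 of all 14883 genes. The shBRG1 arrays lay wholly below NSC for 7 (41.2%, against 15.3% of all genes). The median was -0.03 for the 4 light chains and 0.11 for the 6 dynactin subunits. The difference between transport motors and mitotic kinesins was not tested. The shBRG1 arrays lay wholly below the NSC arrays in 8 of the 27 (29.6%, against 15.3% of all genes) and wholly above in 3 (against 20.3% of all genes). Per array, the median deviation from the NSC mean was -0.08 to -0.00144 for transport motors and -0.16 to -0.09 for mitotic kinesins in shBRG1. On the NSC arrays these medians were -0.03 to 0.02 and -0.02 to 0.03.

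KIF16B carries a lipid-binding PX domain and moves early endosomes towards the plus end. Its values were 4.94, 4.94 and 5.07 in shBRG1, against 5.75, 5.40 and 6.01 in NSC. The shBRG1 arrays lay tightly together below all NSC arrays, which spread over more than 0.5 log2 units. KIF16B averaged 4.99 ± 0.07 in shBRG1 and 5.72 ± 0.31 in NSC (SD, n = 3), the largest change among the 54 members (1.66-fold lower, -0.74, SE 0.15, limma adjusted p = 0.0140). Without shBRG1 replicate 2 its adjusted p was 0.0501, in a range of 0.00243 to 0.0501 over the alternatives.

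Kinesin-1 is the main motor of anterograde axonal transport, built from KIF5 heavy chains and KLC light chains. KIF5B, the ubiquitous heavy chain, had 11.04, 10.98 and 10.9999 in shBRG1 and 11.09, 11.11 and 11.09 in NSC. The groups were separate but close, and the change of -0.09 (95% interval -0.23 to 0.05) did not pass (adjusted p = 0.386; 0.0370 with trend and robust options). The neuronal heavy chain KIF5A had 7.01, 7.07 and 6.79 in shBRG1 and 7.14, 6.94 and 7.15 in NSC (-0.12, 95% interval -0.35 to 0.12). KIF5C, the other neuronal form, had 8.85, 8.73 and 8.78 in shBRG1 and 8.81, 8.92 and 8.78 in NSC (-0.05, 95% interval -0.22 to 0.12). Both overlapped between groups. KLC1, the neuron-enriched light chain that links kinesin-1 to cargo, had 8.19, 8.28 and 8.26 in shBRG1 and 8.39, 8.28 and 8.34 in NSC, just without overlap (-0.09, adjusted p = 0.415). Changes of the 4 light chains ran from -0.09 to 0.14, and 0 of them passed. The 2 probe sets of KLC2 disagreed in direction, with 0.14 for the brighter and -0.22 for the dimmer.

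The kinesin-3 motors carry synaptic vesicle precursors and mitochondria. KIF1A, the neuronal vesicle motor, had 8.10, 8.23 and 8.22 in shBRG1 and 8.29, 8.30 and 8.30 in NSC. Every shBRG1 array was lower, by little (-0.11, 95% interval -0.27 to 0.04, adjusted p = 0.313). KIF1B, a gene of the neuroblastoma-linked region of the first chromosome's short arm, had 7.99, 7.97 and 8.03 in shBRG1 and 7.98, 7.86 and 7.88 in NSC (0.09, adjusted p = 0.446). Its groups overlapped.

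Kinesin-2 moves intraflagellar trains outward in cilia and also works in axons, as a KIF3A and KIF3B pair with the adaptor KIFAP3, or with KIF3C in neurons. KIF3A had 7.89, 7.92 and 7.99 in shBRG1 and 7.78, 7.80 and 7.75 in NSC, higher on every shBRG1 array (0.16, adjusted p = 0.151; 0.0486 with dim genes left out). KIF3C, described after its values were seen for the widest spread, had 6.66, 7.05 and 6.28 in shBRG1 and 6.48, 6.17 and 6.25 in NSC. One shBRG1 array lay inside the NSC range, and the change of 0.36 had an interval of -0.07 to 0.79 (adjusted p = 0.246). Changes of the other transport kinesins not named above ran within the range from -0.24 (KIF17) to -0.01 (KIF13A), none past the threshold. KIF13A and KIF21B lay below the probe set median, where changes may be understated. KIF13B passed after cyclic loess and with dim genes left out.

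Dynactin links dynein to cargo and is needed for its long runs. All 6 measured subunits had a change above 0 (against 7612 of all 14883 genes), from 0.01 (DCTN6) to 0.21 (DCTN5), and 0 passed. At an unadjusted p of 0.05 there was 1 (16.7%, against 30.4% of all genes). DCTN5 passed in the fit without dim genes and in the trend and robust fit. DCTN1, the p150Glued arm that grips microtubules, had 7.14, 7.26 and 7.14 in shBRG1 and 7.15, 7.02 and 7.05 in NSC (0.11, adjusted p = 0.381). DCTN2, the shoulder subunit dynamitin, had 6.51, 6.50 and 6.58 in shBRG1 and 6.43, 6.23 and 6.56 in NSC (0.12, adjusted p = 0.455). Both groups overlapped. DCTN5, a subunit of the pointed-end complex picked after its value was seen, had 9.99, 10.09 and 9.92 in shBRG1 and 9.72, 9.89 and 9.77 in NSC. Those groups did not overlap (0.21, adjusted p = 0.124).

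**Figure D4:**
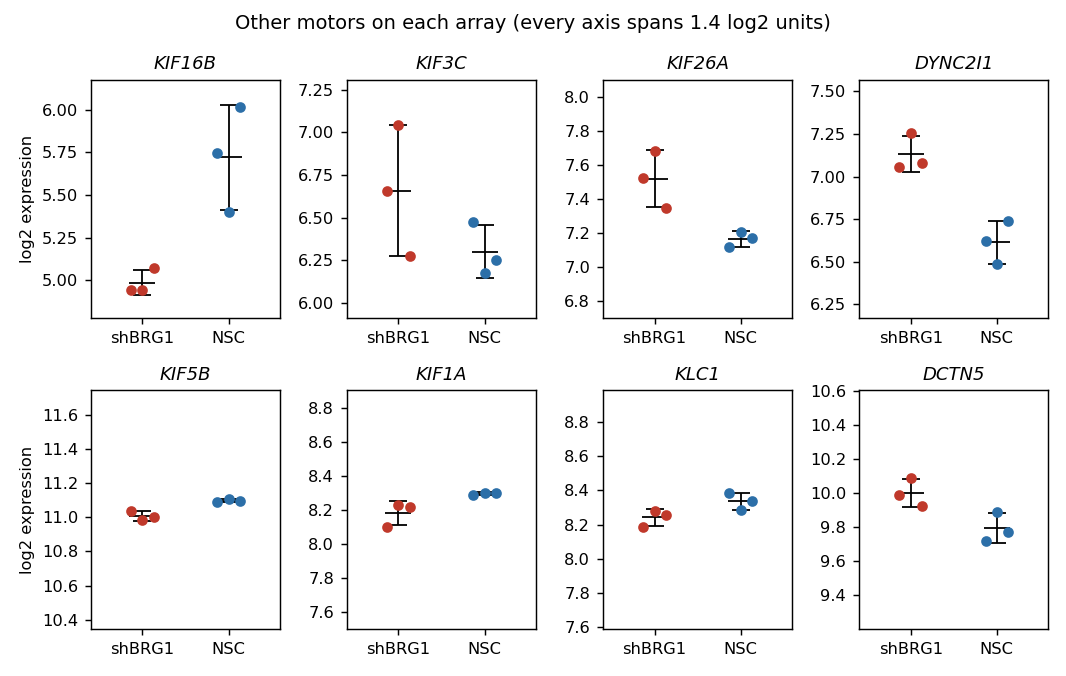
Log2 expression of 8 further members on each array, shBRG1 in red and NSC in blue, with the mean and SD of 3 arrays in black. Every panel spans 1.4 log2 units; KIF16B is lower (-0.74), DYNC2I1 (0.52) and KIF26A (0.35) are higher, and KIF3C shows the widest spread.

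Dynein 2 is the retrograde motor of intraflagellar transport, which brings cargo back from the tip of the cilium. DYNC2I1, an intermediate chain of dynein 2, had 7.06, 7.25 and 7.08 in shBRG1, against 6.62, 6.48 and 6.74 in NSC. All shBRG1 arrays lay above all NSC arrays, by more than the spread within the groups. The gene was 1.43-fold higher, at 7.13 ± 0.11 in shBRG1 and 6.61 ± 0.13 in NSC (0.52, SE 0.09, limma adjusted p = 0.00924), and passed under each of 13 alternative fits (9.09e-04 to 0.0355). Its partner intermediate chain DYNC2I2 had 7.87, 7.82 and 7.84 in shBRG1 and 7.98, 7.75 and 7.75 in NSC, with overlap and an interval of -0.18 to 0.21 around 0.01. The interval of DYNC2I1 was 0.30 to 0.73, and the difference between both chains was not tested. The 3 light chain genes DYNLT2, DYNLT4 and DYNLT5 had changes of -0.04, -0.12 and -0.22, none past the threshold, and DYNLT2 and DYNLT5 lay below the probe set median.

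Among 11 other kinesins, 1 rose (9.09%, against 9.78% of all genes), 0 fell (against 7.19%) and 10 were not past the threshold. KIF26A, an atypical kinesin without ATPase activity that restrains GDNF and RET signalling in mouse enteric neurons, had 7.53, 7.68 and 7.35 in shBRG1 and 7.12, 7.21 and 7.17 in NSC. The shBRG1 arrays spread more widely and all lay above the NSC arrays. It was 1.28-fold higher (0.35, SE 0.09, limma adjusted p = 0.0411). The call was lost after cyclic loess (adjusted p = 0.0697) and when NSC replicate 1 (0.111), 2 (0.0824) or 3 (0.0945) was left out. It was also lost when shBRG1 replicate 1 (0.105) or 2 (0.101) was left out, in a range of 0.00803 to 0.111.

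KIF26B, its paralogue, was picked after its value was seen and had 7.55, 7.55 and 7.5005 in shBRG1 and 7.27, 7.35 and 7.33 in NSC. The groups were clearly apart, but the change of 0.22 fell short of the threshold (adjusted p = 0.0595; 0.0137 with dim genes left out and 0.0214 with trend and robust options). KIF27, a relative of KIF7 picked likewise, had a change of 0.27 (adjusted p = 0.0626), and of its dimmer probe sets 1 gave -0.28. KIF7, which organises the tip of the cilium for Hedgehog signalling, had 6.34, 6.08 and 6.37 in shBRG1 and 6.09, 6.36 and 6.19 in NSC (0.05, adjusted p = 0.795). KIF2A, a microtubule depolymerase of growing neurites and spindle poles, had 8.89, 8.96 and 8.96 in shBRG1 and 9.14, 9.02 and 9.03 in NSC, lower on every shBRG1 array (-0.13, adjusted p = 0.269). KIF6, KIF9 and KIF25 lay below the probe set median, where changes may be understated.

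Genes of motile cilia, the organelle that axonemal dyneins drive, gave 0 calls among 12 measured (against 17% of all genes), and 0 of the 12 had an unadjusted p under 0.05 (against 30.4%). Of the 12, 7 lay below the probe set median (58.3%, against 30.4% of all genes). FOXJ1, the regulator of that programme, had a change of -0.08 (adjusted p = 0.648).

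Adaptors and regulators of the motors went both ways. Of 30 measured, 5 rose (against 9.78% of all genes) and 3 fell (10%, against 7.19%), with a median change of -0.02. In both directions together 26.7% were called, against 17% of all genes. Among partners of dynein, NDEL1, which works with LIS1 on the dynein motor, rose (0.48, limma adjusted p = 0.00357), with 8.13, 8.13 and 8.09 in shBRG1 and 7.69, 7.65 and 7.57 in NSC. NIN, a centrosomal protein that also activates dynein, fell by 0.76 (log2; adjusted p = 0.00173), with 7.54, 7.70 and 7.51 in shBRG1 and 8.43, 8.36 and 8.23 in NSC. Both genes were separated by wide gaps. CLIP1, which brings dynactin to growing plus ends, rose by 0.43 (adjusted p = 0.00935), and BICDL1, a dynein adaptor of secretory vesicles, fell by 0.40 (adjusted p = 0.0164; 0.0547 without NSC replicate 1).

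Among partners of kinesins, MAPK8IP3, the JIP3 scaffold of axonal transport, rose (0.50, adjusted p = 0.00691). The kinesin-2 adaptor KIFAP3 rose by 0.40 (adjusted p = 0.0123), a call that averaging over the gene's probe sets removed (0.19, adjusted p = 0.391). RHOT1, the mitochondrial anchor of motors, rose by 0.35 (adjusted p = 0.0154; 0.0508 without NSC replicate 3, 0.0559 without shBRG1 replicate 1 and 0.0516 without shBRG1 replicate 2). JAKMIP1 fell by 0.81 (adjusted p = 0.0171), with 4.93, 5.45 and 5.45 in shBRG1 and 6.34, 5.90 and 6.004 in NSC. It binds microtubules and interacts with kinesin heavy chains.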

How the data were processed

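The authors deposited a log2 value for every probe set on 6 arrays. Per the submitters' processing notes they used R 3.1.0 with oligo 1.27 for RMA, and limma 3.19. RMA gives the probe intensities of all arrays 1 distribution before they are summarised, which hides any change common to every transcript. The log2 scale was taken from the range of the values (1.19 to 13.8). The probes' genome build was not used here. Alternatives changed the array scaling, the dim gene filter, the probe set rule, the eBayes options, the array weights and the threshold, added a replicate block, or left out single arrays. Of 52299 probe sets 15828 carried 1 symbol, 0 several and 36471 none; the brightest probe set of each gene was kept (14883 genes, 945 set aside).

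limma 3.58.1 in R 4.3.3 (lmFit, eBayes, two-sided, no covariates) compared shBRG1 with NSC; 95% intervals come from the moderated t distribution. The fit was tested on simulated data. For single values, exact permutation of 3 against 3 arrays reaches at best p = 0.1. Dim means below the median of gene means (5.09); the probe set median is 3.80. Members, role lists and alternatives were chosen with earlier results of these data known. The text names every mitotic kinesin, every other member past the threshold, a list of well-known motors, and up to 4 genes of a context list by smallest p; the other context genes named, and the CHR windows, were chosen after their values were seen. Promoters came from RefSeq, with 43 of 54 members matched. Figures used matplotlib 3.10.9 in Python 3.11.15.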

Additional observations from a re-analysis of the deposited data

How the results depend on the processing

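KIFC1 and DYNC2I1 kept their direction and call in each of 13 alternative fits. The 5 members past the threshold numbered 9 with dim genes left out (of 38 tested, 23.7% against 43.0% of all genes), 9 with trend and robust options (16.7% against 22.2%), 2 at an adjusted p of 0.01, and 2 to 4 when each array was left out in turn. The 2 higher members numbered 1 after cyclic loess (then 4 were lower), 5 with dim genes left out, 4 with trend and robust options, 1 at an adjusted p of 0.01, and 1 to 2 without single arrays. The 3 lower members numbered 5 with trend and robust options, 1 at an adjusted p of 0.01, and 1 to 3 without single arrays. The 2 lower mitotic kinesins numbered 1 at an adjusted p of 0.01 and 1 to 2 without single arrays. Transport motors that rose, 0 in the text, numbered 2 with dim genes left out and 1 with trend and robust options. The 1 that fell numbered 2 after cyclic loess (with KIF13B), 2 in the fit without dim genes, 2 in the trend and robust fit, 0 at an adjusted p of 0.01, and 0 to 1 without single arrays. After cyclic loess the median change was -0.20 for mitotic kinesins and -0.083 for transport motors; without single arrays it was -0.16 to -0.11 and -0.073 to -0.011. Calls over all genes, 2525 in the main fit, numbered 3306 with trend and robust options and 3201 of 7442 with dim genes left out. They numbered 1608 with the replicate number as a block and 1604 to 1840 without single arrays. The cause of these moves was not tested. With dim genes left out fewer genes were tested, and the whole fit was made anew on those genes.

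Small changes that did not pass in any fit turned sign: KIF15 to 0.011 after centring and, without single arrays, from -0.048 to 0.027; KIF2B to -0.020 with array weights and, without single arrays, from -0.095 to 0.061; KIF2C to -0.028 after cyclic loess and, without single arrays, from -0.0079 to 0.071. KIF7 turned to -0.012 after cyclic loess and ran from -0.0081 to 0.14 without single arrays.

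With the replicate number as a block (replicate block), 3 members passed, 1 higher and 2 lower, with 1 lower mitotic kinesin; KIF11 (adjusted p = 0.0792) and KIF26A (0.0687) were not called. No pairing by number was seen, since deviations of same-numbered arrays correlated at -0.04, -0.14 and -0.03. A weak pairing could be missed with 3 arrays a group.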
